A study of Homo sapiens with 7 samples.

Results

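Broad Myc domains were defined here as the peaks of 4000 bp or more on chromosomes 1 to 22 in the authors' peak list for HT29 cells. They were chosen by width alone, the end of the listed interval minus its start. The rule found 494 broad peaks among 46129 peaks on these chromosomes (1.07%), and among 47017 in the whole list. The broad peaks covered 2.62 of the 44.6 Mb that lay under any peak on these chromosomes (5.88%), and at least 1 annotated gene lay under 477 of them. HT29 is a widely used human colon cancer cell line. The titles divide the 7 libraries into 3 for Myc, 3 for IgG and 1 input. All came from cells given oleic acid, a fatty acid with 1 double bond, for 6 h in serum-free medium. None of the 7 came from untreated cells. The labels list the Myc antibody for the IgG libraries as well, and the groups follow the titles.

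Myc is a transcription factor that binds DNA as a dimer with MAX, above all at the E-box, a short palindromic motif, and at close variants of it in active promoters. It is a product of a major oncogene of colon cancer, where WNT signalling drives its transcription. CUT&RUN maps a chromatin protein by tethering a nuclease to it through an antibody, so that DNA around the protein is cut out and sequenced. A peak caller then joins neighbouring positions with signal above the local background into 1 interval. The interval becomes wide where such signal runs on with short gaps at most. Width was read here as the length of such a run and not as a number of Myc molecules.

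The promoters under 5 of the widest domains are shown, as windows of the kind in which motifs are counted further on for coding genes alone. Each is a window of 300 bases from RefSeq (GRCh38.p14), running 5′ to 3′ on the gene's strand from 250 bases before the annotated start to 50 bases after it. Capitals mark the non-canonical E-box CACGCG or its reverse complement CGCGTG, and the TATA box TATAAA or its reverse complement TTTATA. None of the windows holds the canonical E-box CACGTG, and HOXA11 holds none of these motifs. Over all 21156 windows of coding genes, 8.25% held CACGTG, 14.3% held CACGCG and 9.51% held TATAAA, each on either strand. HOXA11 is a homeobox gene of the posterior body axis, and its window, on the minus strand at chr7:27185183-27185482, lies in the widest domain.
HOXA11: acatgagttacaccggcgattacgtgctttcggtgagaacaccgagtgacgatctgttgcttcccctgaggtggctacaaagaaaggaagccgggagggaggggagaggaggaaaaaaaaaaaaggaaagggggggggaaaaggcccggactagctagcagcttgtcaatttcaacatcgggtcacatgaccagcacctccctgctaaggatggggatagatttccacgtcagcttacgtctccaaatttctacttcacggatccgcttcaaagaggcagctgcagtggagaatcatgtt
MALAT1 is a long nuclear RNA, so its window, on the plus strand at chr11:65497488-65497787, is not among those counted further on.
MALAT1: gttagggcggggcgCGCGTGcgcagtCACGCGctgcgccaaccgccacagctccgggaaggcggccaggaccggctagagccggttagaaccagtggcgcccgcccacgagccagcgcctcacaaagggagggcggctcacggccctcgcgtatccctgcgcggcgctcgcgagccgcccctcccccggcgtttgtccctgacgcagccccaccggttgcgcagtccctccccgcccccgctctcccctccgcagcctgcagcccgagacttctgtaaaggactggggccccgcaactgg
HES1 is a repressor that NOTCH signalling induces, and its window lies on the plus strand at chr3:194135898-194136197.
HES1: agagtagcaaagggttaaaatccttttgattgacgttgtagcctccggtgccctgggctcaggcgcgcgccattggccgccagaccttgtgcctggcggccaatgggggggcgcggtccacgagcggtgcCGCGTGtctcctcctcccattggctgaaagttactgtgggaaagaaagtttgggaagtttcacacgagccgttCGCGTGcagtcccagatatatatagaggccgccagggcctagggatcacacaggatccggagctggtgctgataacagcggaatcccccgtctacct
ANXA2 encodes annexin A2, a membrane-binding protein, and its window lies on the minus strand at chr15:60397937-60398236.
ANXA2: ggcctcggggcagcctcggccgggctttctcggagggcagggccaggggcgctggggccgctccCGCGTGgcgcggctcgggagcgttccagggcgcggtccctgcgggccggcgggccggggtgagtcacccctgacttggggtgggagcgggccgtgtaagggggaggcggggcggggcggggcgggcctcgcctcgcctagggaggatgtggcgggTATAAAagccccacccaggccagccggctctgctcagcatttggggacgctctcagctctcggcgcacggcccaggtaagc
H2BC13 encodes a replication-dependent histone H2B, and its window lies on the minus strand at chr6:27807880-27808179.
H2BC13: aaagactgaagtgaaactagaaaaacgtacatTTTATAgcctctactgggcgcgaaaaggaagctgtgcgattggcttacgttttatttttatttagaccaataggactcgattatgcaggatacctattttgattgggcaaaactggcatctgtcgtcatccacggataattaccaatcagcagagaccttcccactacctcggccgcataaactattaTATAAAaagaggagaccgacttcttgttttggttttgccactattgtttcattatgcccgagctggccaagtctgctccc

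Broad peaks overlapped 26 of 1793 miRNA genes (1.45%), against 2.72% of coding genes, and 23 of the 26 had mature sequences in the RefSeq table. The miRNAs below belong to 4 well-known clusters or families under the peaks and are shown with the seed, bases 2 to 8 from the 5′ end, in capitals. The HOXA domain and the HOXB9 domain each contained a miR-196 gene, and the 5p arms of both genes shared the seed AGGUAGU. These RNAs are known to repress HOX messages.
hsa-miR-196b-5p: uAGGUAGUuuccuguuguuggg
hsa-miR-196a-5p: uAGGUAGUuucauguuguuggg
The peak over MIR17HG covered MIR17, MIR18A and MIR19A, members of a cluster long known as a Myc target that promotes growth, with 3 different seeds.
hsa-miR-17-5p: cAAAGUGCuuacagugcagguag
hsa-miR-18a-5p: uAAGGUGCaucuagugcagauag
hsa-miR-19a-3p: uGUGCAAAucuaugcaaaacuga
The peak over MIR200C and MIR141 covered a pair of miRNAs that maintain the epithelial state, whose seeds differ.
hsa-miR-200c-3p: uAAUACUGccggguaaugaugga
hsa-miR-141-3p: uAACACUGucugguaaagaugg
The peak over MIR192 and MIR194-2 covered a pair of miRNAs that are abundant in intestinal epithelium.
hsa-miR-192-5p: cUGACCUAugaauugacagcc
hsa-miR-194-5p: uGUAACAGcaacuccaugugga

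These 4 miRNA sites differed in strength. The fold, the authors' ratio of the Myc pileup to the control level at the summit with 1 added to each, was 24.3 over MIR17HG, in a peak of 4608 bp. It was 13.7 over MIR200C and MIR141, in a peak of 4981 bp, and 7.23 over MIR192 and MIR194-2, in a peak of 4096 bp. The miR-196 genes lay in the 2 widest domains, where the fold was 8.38 and 7.98.

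Most broad peaks were only somewhat wider than the threshold, with a short tail of much wider ones. Widths ran from 4002 to 27792 bp with a median of 4766.5 bp, and the middle 50% lay between 4290.5 and 5522.8 bp. There were 196 peaks of 5 kb or more, 25 of 8 kb or more, 12 of 10 kb or more and 2 of 20 kb or more. The fold ran from 3.27 to 41.2 with a median of 10.8, and the narrower peaks had a median of 4.10. The pileup, the number of fragments over the summit, had a median of 85 in broad and 29 in narrower peaks, whereas the control level had medians of 6.55 and 5.93. Width chose the members and both values come from the same Myc signal, so these differences describe the choice and were not tested.

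Broad peaks were strong as a class, and most of the strongest peaks were nevertheless narrower. Of the 494, 492 lay above the median fold of all peaks, and 296 (59.9%) lay in the top 10%, which began at a fold of 9.86. Broad peaks were 1.07% of all peaks but 47 (9.51%) of the 494 of highest fold, 33 of the 350 with a fold of 20 or more and 2 of the 10 highest. Across all peaks, Spearman's rho between width and fold was 0.76, and across the broad peaks alone it was 0.04. These correlations describe peaks of 1 list that share libraries and depth. In the plot of width against fold, the widest peaks sit at middling folds. The strongest of the broad peaks include widths from 4188 bp, at RALY, to 6463 bp, near EEF1G.

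**Figure D1:**
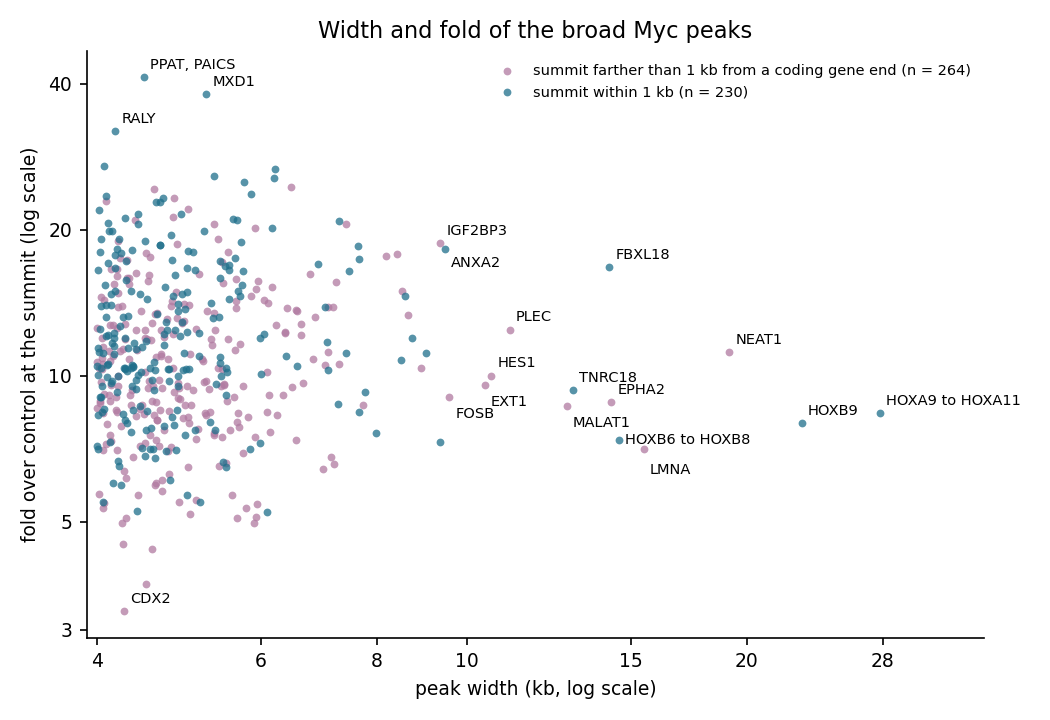
Width (x axis, kb, log scale) against fold over control at the summit (y axis, log scale) for the 494 broad peaks, each a point, coloured by whether the summit lay within 1 kb of a coding gene end (230) or farther (264). The peaks over the HOX clusters, NEAT1 and LMNA are the widest at folds of 7.08 to 11.2, and the highest folds, 41.2 at PPAT and PAICS and 38.1 at MXD1, belong to peaks of 4491 and 5240 bp.

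The widest domains lay over parts of the HOXA and HOXB clusters, over NEAT1 and over LMNA. The widest, 27792 bp at chr7:27165127-27192918, contained all of HOXA10 and HOXA11 and reached the end of HOXA9. Its fold was 8.38 (95% interval 6.47 to 10.7). Such intervals are exact Poisson ones for the pileup, treat the control level as known and cover counting error only. The list holds 1 value per peak, so no spread between the 3 Myc libraries can be given for any fold or width, and the depth of each library is unknown. The next widest, 22901 bp at chr17:48615404-48638304, contained all of HOXB9 at a fold of 7.98, and a domain of 14563 bp on its flank spanned HOXB6, HOXB7 and the edge of HOXB8 at 7.38. HOX genes encode homeodomain factors that set position along the body axis and stay active in the colon.

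Outside the HOX clusters, NEAT1 and LMNA had the widest peaks. NEAT1, the RNA scaffold of paraspeckles, had a domain of 19148 bp at a fold of 11.2 (8.97 to 13.8), with the summit upstream of the annotated gene. MALAT1, the neighbouring nuclear RNA, lay wholly within a domain of 12807 bp at a fold of 8.67. LMNA, which encodes the nuclear lamins A and C, had 15494 bp at a fold of 7.08 (5.47 to 9.01). PLEC, which encodes plectin, a linker of intermediate filaments, had 11118 bp at 12.5. These domains were wide without being among the strongest.

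EPHA2, an ephrin receptor tyrosine kinase, had 14293 bp at a fold of 8.83, and the peak covered 40.6% of the gene. A peak of 14225 bp at 16.7 (13.8 to 20.02) contained all of the lncRNA gene LOC221946 and reached 986 bp (1.66%) of FBXL18, an F-box protein gene, with the summit outside the latter. TNRC18 on the same chromosome arm had 13001 bp at 9.34. HES1 lay wholly inside 10621 bp at 10.0 (7.95 to 12.4), with its summit 4890 bp upstream of the gene's start. EXT1, a heparan sulfate polymerase gene, had 10450 bp at 9.56. FOSB, an AP-1 subunit, had 9577 bp at 9.04, and ZFP36, which encodes an RNA decay factor of the immediate early response, lay inside 9046 bp at 11.1. A histone cluster of 5 coding genes, H2BC13, H2AC13, H3C10, H2AC14 and H2BC14, lay wholly inside 9358 bp at 7.29, the most coding genes of any broad peak. ANXA2 and IGF2BP3, an oncofetal RNA-binding protein gene, had the highest folds among the 20 widest, 18.3 in 9461 bp and 18.8 in 9356 bp. The 20 widest peaks had folds of 7.08 to 18.8 with a median of 9.78. The others among them lay over C1orf116, CHD2, a chromatin remodeller, and 1 site without a gene.

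The strongest broad peaks lay over PPAT and PAICS, over MXD1 and over RALY. The highest fold was 41.2 (36.3 to 46.6), with 250 fragments at the summit, over the shared promoter region of PPAT and PAICS, enzymes of purine synthesis. MXD1, which encodes a partner of MAX that opposes Myc, followed at 38.1 (33.4 to 43.3). RALY and HNRNPF, both nuclear RNA-binding protein genes, were at 32.0 and 25.04, and PABPC1, the gene of a poly(A)-binding protein, was at 27.1. The peak over STX5, TEX54 and WDR74 was at 26.7, that over SPINT2, a protease inhibitor gene, at 25.8, and that over SNX5 and MGME1 at 25.5. A peak without a gene near EEF1G stood at 24.4. MIR17HG, at 24.3, completed the 10 strongest. The interval of PPAT and PAICS overlaps that of MXD1, so their order is not resolved.

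The weakest broad peaks were at CDX2, the master regulator of intestinal identity, with a fold of 3.27 (2.39 to 4.38), DCBLD2 at 3.72, TENT5B at 4.39, LINC01043 at 4.50 and a site without a gene on chromosome 9 at 4.97. The control level at CDX2 was 12.4 against a median of 6.55 over broad peaks, and its pileup was 43. The part of the control level in that low fold was not tested.

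Coding genes under a broad peak numbered 520 of 19126 (2.72%, the background for the lists that follow). A peak of some width lay over 13182 coding genes (68.9%), and 3.94% of those lay under a broad peak. Most lists had a peak at a larger share of their genes. The 3.94% is over genes with a peak, whereas the list shares below are over all listed genes. Among listed genes with a peak, the share was 44% for HOX genes and 34.4% for AP-1 and immediate early genes. It was 2.56% for ribosome biogenesis genes. Of the 520 genes, 54 lay wholly inside a broad peak, among them HES1, ID1, CEBPB, CLDN4, CLDN7, S100A6, FTL, TMSB10, SFN and IRF7. Genes under broad peaks had a median length of 23108 bp, against 32064 bp for other coding genes with a peak and 24476 bp for all coding genes. Most broad peaks, 337, overlapped 1 coding gene and 97 overlapped more than 1, so genes that share a peak are not separate observations. Also, 32 genes lay under more than 1 broad peak, including KRT8 and SLC2A1, the glucose transporter gene, with 3 each. The 17 lists held 663 coding genes, of which 100 (15.1%) lay under a broad peak. They were drawn up around Myc, gut and cancer biology with earlier results of these data known, so their raised share is described and was not tested.

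Of the immediate early genes and the AP-1 family, which respond within minutes to growth signals, 11 of 34 (32.4%, Wilson interval 19.1 to 49.2%) lay under a broad peak. The share was 20.6% when the summit had to lie in or within 1 kb of the gene, a count that covered 2.26% of all coding genes. By width they began with FOSB, ZFP36, FOSL2, ZFP36L2, EGR1 and KLF6. The peak over FOSL2 was 7632 bp at a fold of 18.5, and that over EGR1 was 5501 bp at 6.49, so wide peaks of the group ranged in strength. Among receptor tyrosine kinases, ligands and ERK feedback genes, 8 of 37 (21.6%) lay under a broad peak. These were the receptors EPHA2 and MET, the adaptor IRS1, and the feedback inhibitors SPRY1, SPRY2, SPRY4, SPRED1 and DUSP6. MET had a fold of 16.5 in 5097 bp, SPRY2 7.55 in 4974 bp and DUSP6 6.10 in 4795 bp.

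Of the HOX genes, 11 of 39 (28.2%, 16.5 to 43.8%) lay under 7 broad peaks, and 17.9% were counted by the summit. They came from the HOXA cluster, with 5 of 11 genes, and the HOXB cluster, with 6 of 10. All 11 HOXA genes and 9 of the 10 HOXB genes had a peak of some width, against 68.9% of all coding genes. In the HOXC cluster 5 of 9 genes had a peak, of which the widest was 3590 bp, and none of the 9 HOXD genes had one. Broad Myc signal over HOX genes was thus found at the A and B clusters alone among the 4.

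Of 30 intestinal and endodermal transcription factors, 7 (23.3%) lay under a broad peak, among them HES1, KLF5, ELF3, GRHL2, EHF and CDX2. KLF5, a crypt factor gene, had a fold of 7.49 in 5459 bp, and GRHL2, an epithelial factor gene, 12.2 in 4721 bp. ELF3, an epithelial ETS factor gene, lay under 2 broad peaks. In the NOTCH pathway 5 of 23 genes (21.7%, and 13.04% by the summit) were covered, from the ligand JAG1 at 18.2 through the glycosyltransferase LFNG and the coactivator MAML3 to the targets HES1 and NRARP. Among TGF-beta, BMP and ID genes it was 5 of 25 (20%), with the signal transducer SMAD3, the inhibitor SMAD6, the corepressor TGIF1 and the targets ID1 and ID2. In the WNT pathway it was 7 of 42 (16.7%), with the coactivator BCL9L at 17.8 in 8409 bp, the receptor LRP5, the ligand WNT11, the kinase GSK3A at 20.1, the ubiquitin ligase ZNRF3 and the corepressors TLE1 and TLE3.

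Hippo and adhesion genes counted 6 of 36 (16.7%), with the epithelial keratins KRT8 and KRT18, PLEC, LAMA5, ITGA6 and ACTN4. Cancer and antiapoptotic genes counted 8 of 43 (18.6%). They were led by TRIB1, a pseudokinase gene, at 17.4 in 7659 bp, BBC3, which encodes the apoptosis inducer PUMA, BCL2L1, an apoptosis inhibitor gene, at 20.9, and the kinase gene PTK2. Cell cycle regulators counted 4 of 32 (12.5%), the cyclin gene CCND1, the inhibitor gene CDKN1B, E2F3 and CDK6. The MYC network counted 2 of 13. MYC itself lay under a peak of 7039 bp at a fold of 13.8 that covered 60.5% of the gene, and MXD1 was the other.

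Replication-dependent histones counted 11 of 55 (20%, 11.6 to 32.4%) under 5 shared broad peaks, and 7.27% when the summit had to lie in or within 1 kb of the gene. The list leaves out some histone genes. By symbol, a count added after the values were seen, 16 of 70 lay under 6 broad peaks, including H2AC15, H2AC19, H3C14, H3C15 and H4C15. Ribosomal protein genes counted 7 of 74 (9.46%, 4.66 to 18.3%), although all 74 had a peak of some width. RPL18, wholly inside a peak of 7475 bp at 16.5, RPL10A and RPL4 were among them. Ribosome biogenesis genes counted 1 of 39 (2.56%), WDR74, again with a peak of some width at all 39, and this share was at the background. Chromatin regulators counted 4 of 52 (7.69%, and 3.85% by the summit), ARID1A, PCGF2, BRD2 and SMARCA2. Lipid metabolism genes counted 4 of 57 (7.02%, 2.76 to 16.7%). These were SQLE, an enzyme of sterol synthesis, at 16.1, ACACA, an enzyme of fatty acid synthesis, at 16.1, PNPLA2, the lipase gene of stored fat, and RXRA, the gene of a nuclear receptor partner. No gene of 37 typical of other tissues lay under a broad peak (upper bound 9.41%). A peak of some width lay over 12 of them (32.4%), against 68.9% of all coding genes.

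**Figure D2:**
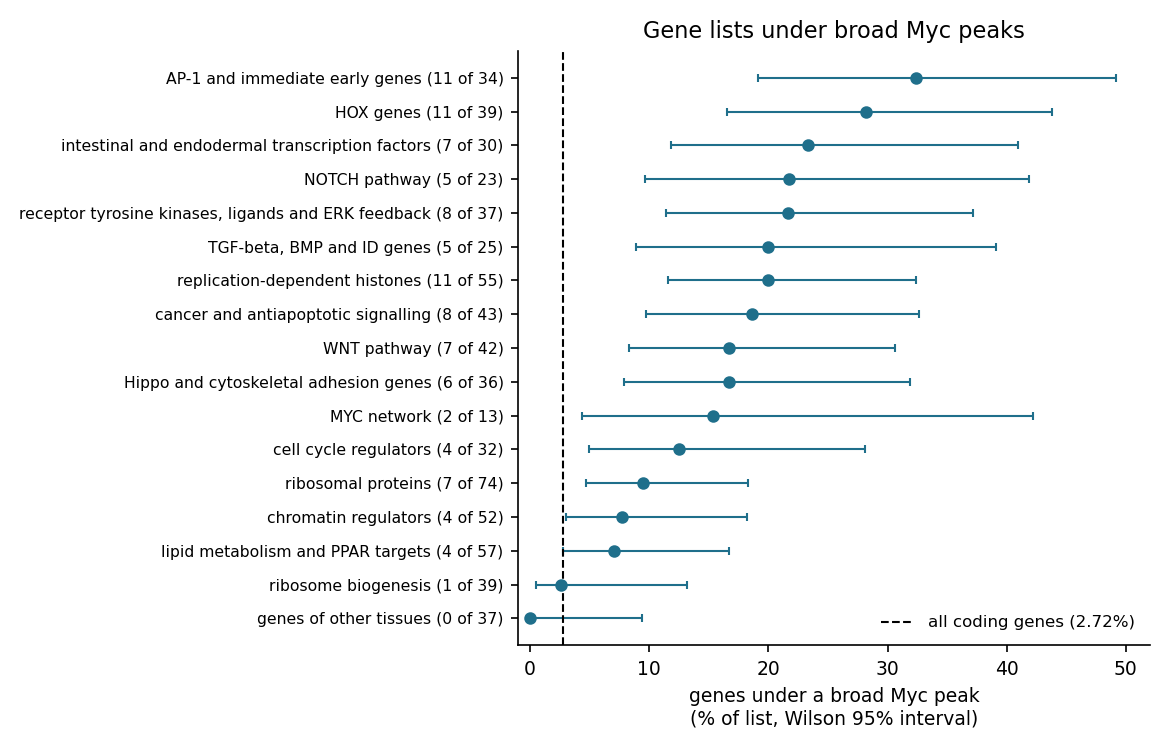
Share of each gene list that lay under a broad Myc peak (x axis, percent, with Wilson 95% intervals), with the count of genes in brackets and the share over all coding genes, 2.72%, as a dashed line. The AP-1 and immediate early genes (32.4%) and HOX genes (28.2%) have the highest shares by overlap at this width, and ribosome biogenesis genes (2.56%) and genes of other tissues (0 of 37) lie at or below the line.

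Broad peaks also overlapped 192 of 17795 lncRNA genes (1.08%), 18 of 439 tRNA genes (4.1%), 16 of 1150 snoRNA genes (1.39%) and 11 of 151 snRNA genes (7.28%). A non-coding gene alone lay under 43 broad peaks. On the chromosomes of the promoter table such peaks were 8.44% of broad, 7.96% of 2 to 4 kb and 11.9% of all narrower peaks. A single peak of 4820 bp at a fold of 17.3 covered SNORD25 to SNORD30, snoRNA genes that guide rRNA modification. A peak of 6547 bp at 7.39 covered the tRNA genes TRL-AAG2-1, TRV-AAC2-1, TRP-TGG3-1 and TRT-TGT6-1. Spliceosomal RNA genes of 4 kinds, U1 (RNU1-1 to RNU1-4), U2 (RNU2-2), U4 (RNU4-1 and RNU4-2) and U5 (RNU5B-1), were covered, as was RNU7-1 of histone mRNA processing. These are multicopy genes with near-identical copies elsewhere, so reads there may be placed at the wrong copy and the values are uncertain.

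No annotated gene lay under 17 broad peaks (3.44%), against 6.13% of peaks of 2 to 4 kb and 25.2% of all narrower ones. On the chromosomes of the promoter table the difference from the class of 2 to 4 kb was -2.08 points, with an interval of -3.65 to 0.16 that included 0. The 4 farthest from any gene were 3 at chr13:112284180-112304163, with the nearest gene 14735, 9304 and 8599 bp away, and 1 on chromosome 9 with the nearest gene at 8655 bp and MTAP as the nearest coding gene. Among the others, the nearest coding gene was FOXA1, a pioneer factor gene of endoderm, at a distance of 3173 bp from the summit and a fold of 9.35. It was KRT8 for a peak of 5662 bp at a fold of 5.09 and IRF2BP2 for 1 of 5451 bp at 17.2.

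Some broad peaks came in runs. Another peak of any width lay within 1 kb of 49.2% of broad peaks and of 24.3% of narrower ones. Joining broad peaks separated by at most 100 kb gave 68 runs, which held 166 (33.6%) of them, and 21 runs had at least 3. Runs of narrower peaks were not counted at this distance, so the 33.6% has no background. Whether broad peaks cluster more than other peaks at this distance was not tested. The longest runs had 5 peaks. One went from CDC42EP2 through NEAT1, LINC02736 and MALAT1 to ZNRD2 over 262230 bp of chromosome 11. Another, of 35089 bp on chromosome 13, held 4 peaks without a gene followed by LINC01043. The third lay over KRT8 and KRT18 in 69365 bp of chromosome 12. The HOXB cluster had 4 broad peaks in 73771 bp and the HOXA cluster 4 in 82177 bp. PCGF2, RPL23 and LASP1 lay in a further run of 4. Runs of 3 included SLC2A1, BCL9L, FOSB with VASP, GSK3A with ERF and CIC, TM4SF1 with TM4SF4, and IRF2BP2. Because a dip in signal can split a domain, the number of peaks in a run depends on the peak caller's joining of gaps. Merging peaks under 1 kb apart gave a stretch of 45627 bp across HOXB.

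The summits of broad peaks were less often near a coding gene end than those of the next narrower class. Of broad peaks, 230 (46.6%, 42.2 to 51.0%) had the summit within 1 kb of either annotated end, against 23.5% of all peaks. The share climbed with width up to a point. It was 9.10% under 500 bp, 15.4% at 500 bp to 1 kb, 40.9% at 1 to 2 kb and 59.6% (58.1 to 61.0%) at 2 to 4 kb, each class without its upper bound. From that class to the broad peaks it was lower (difference -13 percentage points, Newcombe interval -17.6 to -8.35). The annotation had no part in the choice of members, but width and fold go together, so the comparison was repeated within classes of fold.

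Within each class of fold the broad peaks had a lower share than peaks of 2 to 4 kb. At folds of 5 to under 10 it was 35.9% of 195 broad peaks against 53.4% of 2070 peaks of 2 to 4 kb, and at 10 to under 15 it was 50.5% of 188 against 67.6% of 1226. At 15 to under 20 it was 58.3% of 72 against 73.4% of 425. These 3 differences, -17.5, -17.1 and -15.1 points, had intervals that left out 0 (-24.2 to -10.2, -24.6 to -9.53 and -27.3 to -3.53). At folds of 20 or more it was 69.7% of 33 against 78.8% of 189, and the interval of that difference, -27.0 to 5.27 points, included 0. At folds under 5 there were only 6 broad peaks, none of them near an end. Against all narrower peaks, the differences from folds of 5 upward were -2.02, -11.0, -11.4 and -2.86 points. The intervals of the first and last of these included 0. A summit in a wider interval can lie farther from a start that the interval still covers, and the next comparison therefore used the interval itself. A longer interval can in turn hold a start by its length alone, so neither comparison is free of width.

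**Figure D3:**
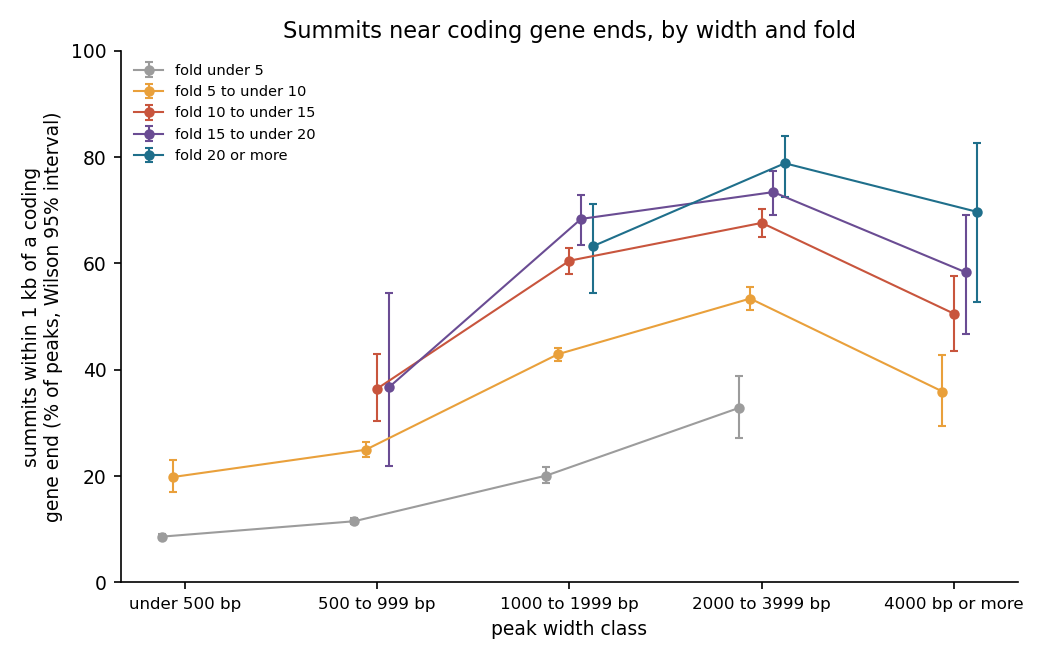
Share of peaks with the summit within 1 kb of a coding gene end (y axis, percent, Wilson 95% intervals) by width class (x axis), with 1 line per class of fold and classes of at least 20 peaks shown. In each fold class drawn at 4000 bp or more, the share lies below that at 2 to 4 kb, for example 50.5% against 67.6% at folds of 10 to under 15.

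By interval, broad peaks held a coding start about as often as the next narrower class, with no allowance for their greater width. Strand and starts came from the promoter table, which covers 79.0% of coding genes, so shares of peaks with a start are lower bounds. Of 462 broad peaks on the chromosomes of that table, 271 (58.7%) held a start of a coding gene, against 62.0% of peaks of 2 to 4 kb (difference -3.39 points, -8.17 to 1.27) and 18.2% of all narrower peaks. A further 78 (16.9%) lay inside or at the end of a coding gene without a listed start. Starts of at least 2 coding genes lay in 18.8% of the 271 start-holding broad peaks and in 17.5% of those of 2 to 4 kb. The start-holding peaks had median widths of 4741 bp and 2494 bp in these classes. The part of width in these shares was not tested.

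Broad peaks reached farther downstream of the coding start than upstream of it, with the summit often away from the start. In 220 broad peaks with the starts of 1 coding gene, the peak ran a median of 1846 bp upstream and 2905.5 bp downstream of the start. The downstream side passed the gene's end in 15 of these peaks. The longer side was downstream in 139 (63.2%, 56.6 to 69.3%), against 70.2% (68.2 to 72.1%) of peaks of 2 to 4 kb. The summit lay within 500 bp of the start in 52.3% of them, against 78.0% in that class, 91.8% at 1 to 2 kb and 98.6% at 500 bp to 1 kb. It lay downstream in 44.1%, against 52.9% at 2 to 4 kb. Over all broad peaks the summit fell in the middle 50% of the interval in 59.3%, and in 74.5% of peaks of 2 to 4 kb. EPHA2 was the extreme case, with 12876 bp of its peak downstream and the summit 10497 bp into the gene.

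**Figure D4:**
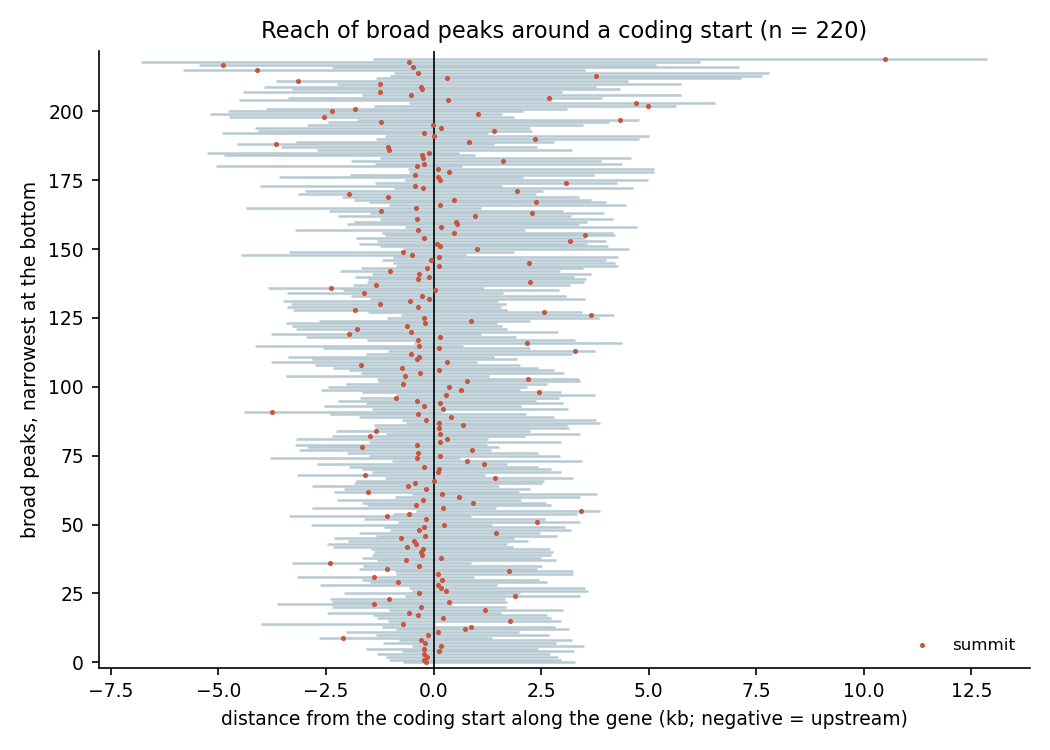
Reach of the 220 broad peaks that hold the starts of 1 coding gene, 1 line per peak ordered by width (y axis), along the gene's direction from the start at 0 (x axis, kb), with the summit as a red point. The lines extend farther to the right (median 2905.5 bp) than to the left (1846 bp), and 52.3% of summits lie within 500 bp of the start.

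Promoters under broad peaks held E-boxes about as often as those under narrower peaks. They held TATA boxes more often than those under narrower peaks, at about the share of all windows. The 467 promoter windows of 332 coding genes under a broad peak were compared with 11454 windows under a narrower peak and 9235 under none. CACGTG was in 9.64% of the first, 10.3% of the second (difference -0.71 points, -3.13 to 2.35) and 5.58% of the third. CACGCG was in 17.99%, 18.9% and 8.41%. The GC box GGGCGG, the site of SP factors, was in 74.5%, 72.1% and 36.4%, and CCAAT in 34.7%, 35.9% and 32.5%, against 56.6% and 34.4% of all windows. All were searched on both strands, and a window can hold more than 1 of them. The median G+C content was 66.3%, 65.7% and 55.7%.

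Of the 5 motifs, TATAAA was the one whose difference between broad and narrower peaks had an interval that left out 0. It was in 10.1% (7.65 to 13.1%) of windows under broad peaks and in 4.77% under narrower peaks (difference 5.30 points, 2.85 to 8.38). It was in 4.83% under peaks of 2 to 4 kb, in 15.4% under none and in 9.51% of all windows. The broad share differed from that of all windows by 0.55 points, with an interval of -1.89 to 3.64 that included 0. TATAAA was also counted on the gene's own strand where it begins 40 to 20 bases before the start. Of the broad group, 21 windows (4.50%) held it, against 1.35% under narrower peaks (difference 3.14 points, 1.59 to 5.43). It was in 5.13% of windows under no peak and in 3.07% of all windows. The difference of broad from all windows, 1.42 points, had an interval of -0.13 to 3.71 that included 0. The 21 genes were ANXA2, CEBPB, CSKMT, ELF1, ELF3, FAM72A, FOSB, H2AC13, H2AC14, H2AC18, H2AC19, H2AX, H2BC13, H3C10, H3C14, H3C15, ID1, MAT2A, SLC2A1, TM4SF4 and ZC3H12A. Histone genes made up 9 of them, several under shared peaks. Without histone genes the shares were 2.68% under broad and 1.16% under narrower peaks (difference 1.52 points, 0.36 to 3.47). They were 5.03% under no peak and 2.89% of all windows. The placed count and the count without histone genes were added after the shares were seen. The windows of ANXA2 and H2BC13 printed above carry such a placed TATAAA. Windows of 1 gene, and of genes that share a peak, are not separate observations, so these intervals may be too narrow. With 1 window per gene, TATAAA on either strand was in 12.7% (9.47 to 16.9%) under broad peaks. It was then in 4.94% under narrower peaks and in 9.83% of all.

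**Figure D5:**
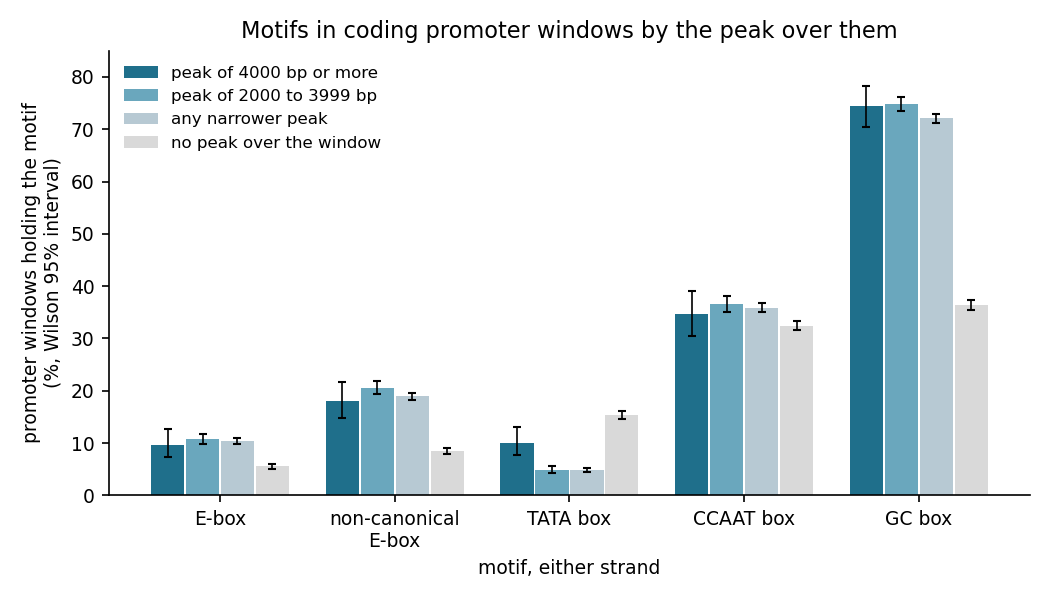
Share of coding promoter windows that hold each motif on either strand (y axis, percent, bars from 0 with Wilson 95% intervals), by the peak over the window. The TATA box is in 10.1% of windows under broad peaks against 4.77% under any narrower peak and 15.4% under none. Over all windows, which are not drawn, its share is 9.51%. The E-box shares under broad and narrower peaks, 9.64% and 10.3%, have overlapping intervals.

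Broad peaks were spread unevenly over the chromosomes. They made up from 0.216% of the peaks on chromosome 14, where there were 2, to 1.57% on chromosome 11, where there were 50. The median control level of broad peaks was 11.7 on chromosome 8 and 9.82 on chromosome 13, against 6.55 over all of them, and narrower peaks there had raised levels of 9.43 and 7.204 too. The part of these levels in the widths was not tested. The highest control level under a broad peak was 33.1, at the snRNA gene LOC124904142.

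The threshold cut through a continuous range of widths. The 5 broad peaks just inside it lay over TJP1 and TGOLN2, both 4002 bp, SPTBN1 at 4003 bp, and TMEM63A and LINC01623 at 4004 bp, with folds of 7.15 to 12.5. The 5 just outside were at RND3, with 3990 bp, a site without a gene, with 3993 bp, MBOAT7 and TSEN34, with 3994 bp, SPIDR and CEBPD, with 3996 bp, and ROCK2, with 3998 bp, at folds of 5.21 to 18.1.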

How the data were processed

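Per the labels' titles, 3 Myc, 3 IgG and 1 input CUT&RUN libraries were made. The submitters' processing notes name build hg38 and, among other tools, BWA 0.7.15 and MACS2 2.1.2. The sources used here do not say which settings or control library were used, or how replicates and duplicates were treated. The deposited peak list gives, for each peak, the authors' fold at the summit (a ratio over the control level), the −log10 of the p-value and q-value, and a score that restates the q-value. The list was read as 1 list over the Myc libraries, with no value per library.

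Width is end minus start. Whole-number pileups and control levels were solved from the deposited fold and −log10 p-value within 0.001, after the procedure was tested on simulated data, for 46126 of 46129 peaks and all 494 broad ones. Genes came from a RefSeq table of GRCh38.p14, which shares its chromosome sequences with hg38, with 19126 coding genes on chromosomes 1 to 22. Promoter windows came from a table with starts for 15101 of them and none on chromosome 8, so comparisons of starts leave that chromosome out. Shares carry Wilson 95% intervals and differences of shares Newcombe 95% intervals. They cover counting error only, and fragments without molecular identifiers are not independent molecules. No test was run, since peaks of 1 list are not replicates and fold, p and q come from the contrast that set the width. Python 3.11.15, pandas 2.3.3, numpy 2.4.6, scipy 1.17.1 and matplotlib 3.10.9 were used.

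The members and gene lists were chosen with earlier results of these data known. Genes named were those under the 20 widest peaks, the 10 of highest and 5 of lowest fold, the 5 on each side of the threshold, the peaks with most genes or farthest from any gene, and the list genes. Other names, such as genes wholly inside a peak, in runs, with a TATA box or of small RNAs, were picked after their values were seen. Alternatives covered the width minimum, the joining of peaks, the window, the overlap, chromosome 8, the motif and high control levels.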

Additional observations from a re-analysis of the deposited data

Results flagged for a closer look

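The list also held peaks of 4000 bp or more outside chromosomes 1 to 22, which no comparison of the report used. One peak, of 16531 bp, spanned nearly the whole mitochondrial chromosome, with a fold of 7.70 and a −log10 q of 14286. It would be the fourth widest peak of the list, and it was flagged as signal outside the chromosomes analysed. The other, of 4008 bp, lay on chromosome X with a fold of 15.4, above the median of 10.8 over the broad peaks, and was flagged for the same reason. Neither has a value per library.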

How the results depend on the processing

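No paired analysis was possible because the list holds 1 value per peak and none per library, so no library could be left out either. With a minimum of 3000 bp there were 1436 broad peaks, 52.99% of summits within 1 kb of a coding gene end, 1427 coding genes, a median fold of 10.34 and 182 list genes. With 5000 bp there were 196 peaks, 40.31%, 206 coding genes and 62 list genes. Merging intervals with gaps under 1 kb gave 1178 peaks and a median fold of 9.97. The share near a coding gene end was 34.2% with a window of 500 bp, 57.1% with 2000 bp, 70.6% with 5000 bp and 60.1% with the ends of all annotated genes. Genes wholly inside a peak numbered 54. Windows with CACGTG or CACGCG made up 25.5%. The median fold was 11.5 for summits near a coding gene end and 10.1 for the others. The remaining 20 comparisons stayed within 1.5 times the reported count or within the interval of the reported share or median, among them those without chromosome 8, with 1 window per gene and without peaks of a high control level (the last pair added after the data were seen). No 2 peaks share an interval. The coding genes covered made up 7.46% of all at 3000 bp and 1.08% at 5000 bp, so list shares should be read against those. Immediate early genes then stood at 50% and 23.5%, HOX genes at 33.3% and 28.2%, and lipid metabolism genes at 19.3% and 0%. Histones stood at 45.5% and 14.5%, so the order of the lists changes with the width. By summits in or within 1 kb of the gene, immediate early genes were at 20.6%, HOX genes at 17.9%, NOTCH genes at 13.04%, histones at 7.27% and chromatin regulators at 3.85%, against 2.26% of all coding genes.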

Other observations

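Counts were also taken for some gene families. They were picked by symbol after the covered genes had been seen, so their counts are values and not evidence of a theme. Of 17 KLF genes, zinc finger factors of growth and differentiation, 4 lay under a broad peak, KLF3 and, already counted in the lists, KLF5, KLF6 and KLF10. Of 25 HNRNP genes, which encode nuclear RNA-binding proteins, 5 did, HNRNPA2B1, HNRNPD, HNRNPF, HNRNPUL1 and HNRNPUL2. Of 16 S100A genes, which encode small calcium-binding proteins, 3 did, S100A5, S100A6 and S100A10. Of 22 claudin genes, the tight junction strands of epithelium, 2 did, CLDN4 and CLDN7, and both lay wholly inside their peaks. The background over all coding genes was 2.72%.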
